A study of Mus musculus with 36 samples.

Results

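Wild-type C57BL/6J (WT) Th1 cells carrying a retrovirus with Ets1 (Ets1-RV) were set against WT Th1 cells carrying an empty retrovirus (EV). The members were the 8 libraries of one sequencing run that the deposited file names give as WT with either virus, 4 with Ets1-RV and 4 with EV, out of 36 libraries in the series. All 8 held total RNA of CD4 T cells from spleen, enriched as naive cells with negative-selection beads and then driven to the Th1 fate on antibody to CD3 with antibody to CD28, interleukin 12 and interleukin 2. Neither virus group carried the deletion of the Ets1-SE-KO strain (KO), whose name says that a super-enhancer of Ets1 is missing, so the virus added Ets1 on top of an undisturbed locus. The same run held 4 KO libraries with Ets1-RV, 4 KO libraries with EV, 2 untransduced KO libraries and 2 untransduced WT libraries. The sources used here do not give the age of the mice or the promoter in the virus, nor whether cells with the virus were selected.

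Ets1 is a transcription factor of the Ets family, which binds DNA at sites with the core letters GGAA and works with partners such as Runx1. In mouse T cells it is abundant before activation and is needed for normal Th1 responses, in which T-bet (from Tbx21) drives interferon gamma (from Ifng). A retrovirus copies its cargo into the genome of dividing cells, so it gives a supply of Ets1 RNA that does not depend on the gene's own enhancers. Bulk RNA cannot tell more Ets1 RNA per cell from more cells with the virus, and the same holds in reverse for a gene that is lower.

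The label of these libraries had to be checked first. The titles of the 4 Ets1-RV libraries name the KO strain and an empty virus and their strain label also gives the KO, while their transduction label gives the Ets1 virus and the file names give WT with the Ets1 virus. The 4 KO libraries with EV had the reverse conflict. Their titles name WT with Ets1-RV and their strain label gives WT, while their transduction label gives the empty virus and their file names KO with EV. They too are used by their file names. Gm27162, a long noncoding RNA gene on the minus strand at chr9:32904937-32928966 (GRCm38), downstream of Ets1, served as the test of genotype. It had 5, 9, 17 and 13 counts in the 4 Ets1-RV libraries, against 21, 20, 8 and 10 counts in the 4 EV libraries. Every KO library of the run, by file name, had 0 counts. The Ets1-RV libraries therefore had the transcript that the KO libraries lacked, and are called WT below by their file names. Grouped by title instead, the libraries called WT with Ets1-RV would be KO libraries with EV, with a log2 fold change of -0.61 for Ets1 against WT with EV.

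Libraries carry a B number and a T number that the labels do not explain. Libraries of 1 B number were summed, which left 2 summed samples per group, and the B number was a block in the test. Xist, the RNA that coats the inactive X chromosome of females, read 0 and 240 CPM (counts scaled to a common library size with TMM factors) in B numbers 1 and 2 with Ets1-RV, against 0.094 and 224 CPM with EV. So the B numbers held cells of different sex in both groups. Libraries held 1884615 to 3468296 gene counts with Ets1-RV, against 2360254 to 4830605 with EV. Among these 8 libraries, those of the EV sample of B number 1 stood apart. Their 10 most abundant genes took 37.6% and 38.3% of their counts, against 46.0% to 47.8% in the other 6. The untransduced WT library of B number 1 was like them, at 38.3%, while that of B number 2 had 46.4%. Reads without a place in the genome were 50.2% to 56.2% of the total with Ets1-RV, against 47.9% to 52.2% with EV. The 10 markers of CD4 and alpha-beta T cells summed to 2217 and 2123 CPM with Ets1-RV, against 2148 and 2207 CPM with EV. The 2 CD8 markers summed to 2.61 and 7.91 CPM, against 3.28 and 4.90 CPM. The NK cell markers Ncr1, Klrb1c and Klra8 were at 0 in all 4 summed samples. The 8 myeloid markers summed to 53.2 and 43.1 CPM with Ets1-RV, against 40.4 and 48.6 CPM with EV. Most of that sum was Cst3, at 48.0 and 40.5 CPM against 35.6 and 45.1 CPM, while S100a8 and S100a9 were at 0 in all 4. Genes of handling stress summed to 3278 and 3621 CPM with Ets1-RV, against 3002 and 3619 CPM with EV, so the groups overlapped.

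Ets1 rose with the Ets1 virus in WT cells. The gene lies on the plus strand at chr9:32636221-32757820. It stood at 634, 604, 622 and 675 CPM in the 4 Ets1-RV libraries, against 344, 334, 341 and 349 CPM in the 4 EV libraries. The lowest Ets1-RV library was far above the highest EV library, and libraries of 1 group lay close together. Over summed samples the level averaged 632 ± 23.3 CPM with Ets1-RV and 342 ± 4.50 CPM with EV (SD, n = 2 each). The log2 fold change was 0.88 (SE 0.13, 95% interval 0.61 to 1.16, adjusted p = 0.0200, edgeR quasi-likelihood test with Benjamini-Hochberg adjustment), a 1.84-fold difference. The count table has 1 number for the gene, so RNA from the virus and from the mouse's own locus cannot be told apart in it. Without the B number as a block the adjusted p was 0.0566. Leaving out 1 summed sample kept log2 fold changes from 0.84 to 0.91. It left 1 sample in a group, assumed to vary like the other groups, and gave adjusted p from 0.279 to 0.913. Leaving out 1 of the 8 libraries kept the call each time.

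The level of Ets1 reached in WT cells was the highest of the run. It was followed by KO cells with Ets1-RV at 412 ± 50.3 CPM, untransduced WT cells at 383 ± 19.7 CPM, and WT cells with EV at 342 ± 4.50 CPM (SD, n = 2 each). These 3 were followed by untransduced KO cells at 228 ± 16.7 CPM and KO cells with EV at 224 ± 43.2 CPM. The order among KO cells with Ets1-RV and untransduced WT cells was within their spread, since the KO samples read 448 and 377 CPM and the WT samples 369 and 397 CPM. In KO cells the log2 fold change of Ets1 with the virus was also 0.88 (SE 0.13, adjusted p = 0.0319), and the WT effect minus the KO effect was 0.00 (95% interval -0.39 to 0.39).

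**Figure D1:**
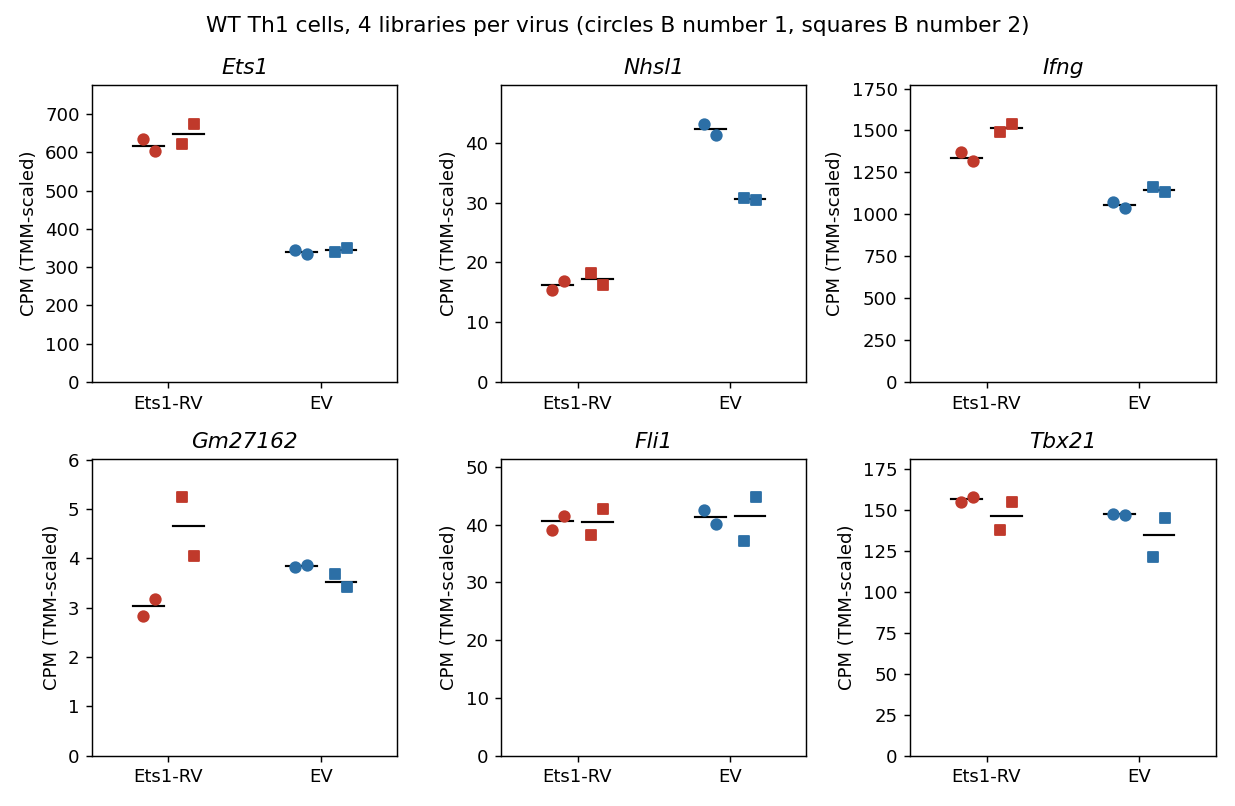
CPM of 6 genes in each of the 4 WT libraries with Ets1-RV (left, red) and the 4 WT libraries with EV (right, blue). Circles are B number 1, squares B number 2, and black lines the summed samples. Ets1 sits between 604 and 675 CPM with Ets1-RV and between 334 and 349 CPM with EV. Nhsl1 separates the other way, and Fli1 and Tbx21 overlap.

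Of 11275 genes tested, 2 passed an adjusted p of 0.05, or 0.0177% of them: Ets1, which rose, and Nhsl1, which fell. At an unadjusted p under 0.05 there were 195 higher genes (1.73%) and 206 lower genes (1.83%). DESeq2 called the same 2 genes. Without the EV sample of B number 1, which stood apart, no gene passed in edgeR (331 at an unadjusted p under 0.05) and Ets1 had a log2 fold change of 0.91 (adjusted p = 0.279). Both summed Ets1-RV samples were above both EV samples for 16.5% of genes and below both for 14.6%. The difference between viruses had the same sign in both B numbers for 5530 genes, or 49.0%. Among the 8799 genes at a mean of 5 CPM or more, the median size of the log2 fold change was 0.11, and 90% of them were under 0.32. Of these genes 2 were more than 2-fold higher with Ets1-RV and 5 more than 2-fold lower.

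Nhsl1 encodes a protein of the Nance-Horan syndrome family that binds the WAVE complex, a regulator of actin at the cell edge. It lies on the plus strand at chr10:18318985-18533892. It had 15.3, 16.9, 18.2 and 16.2 CPM in the 4 Ets1-RV libraries (27 to 59 counts), against 43.2, 41.3, 30.8 and 30.4 CPM in the 4 EV libraries (67 to 237 counts). The highest Ets1-RV library was below the lowest EV library, and the EV libraries of B number 1 were higher than those of B number 2. The log2 fold change was -1.11 (SE 0.17, 95% interval -1.46 to -0.75, adjusted p = 0.0200, edgeR). The call did not hold without the block (adjusted p = 0.0848). It also did not hold without the Ets1-RV library of B number 1 and T number 2 (adjusted p = 0.0613) or that of B number 2 and T number 2 (adjusted p = 0.0628). Without the EV sample of B number 1, which stood apart, the log2 fold change was -0.95 (adjusted p = 0.928).

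The level of Nhsl1 over the run was lowest where Ets1 was highest. It was 16.8 ± 0.644 CPM in WT cells with Ets1-RV, 33.1 ± 4.60 CPM in untransduced WT cells and 36.4 ± 8.28 CPM in WT cells with EV (SD, n = 2 each). KO cells with Ets1-RV, whose Ets1 was above that of WT cells with EV, had 81.6 ± 16.4 CPM of Nhsl1. KO cells had 83.9 ± 12.6 CPM with EV and 106 ± 5.96 CPM without a virus. Untransduced WT cells and WT cells with EV did not differ beyond their spread, nor did KO cells with either virus. In the first Th1 experiment of the series, which shared no library with this run, KO against WT cells gave a log2 fold change of 2.23 for Nhsl1 (SE 0.27, n = 3 each, adjusted p = 0.000721). All of them have B number 1, so n counts T numbers there. In KO cells the Ets1 virus gave a log2 fold change of -0.04 (SE 0.14, adjusted p = 0.983). The WT effect minus the KO effect was -1.06 (95% interval -1.52 to -0.61), with an adjusted p of 0.915 over all genes, so the difference between genotypes did not pass. It passed with each library by itself (-1.07, adjusted p = 0.00365) and with no filter on low counts (-1.08, adjusted p = 0.00133). No gene passed in that difference with edgeR (427 at an unadjusted p under 0.05) or with DESeq2 (109).

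**Figure D2:**
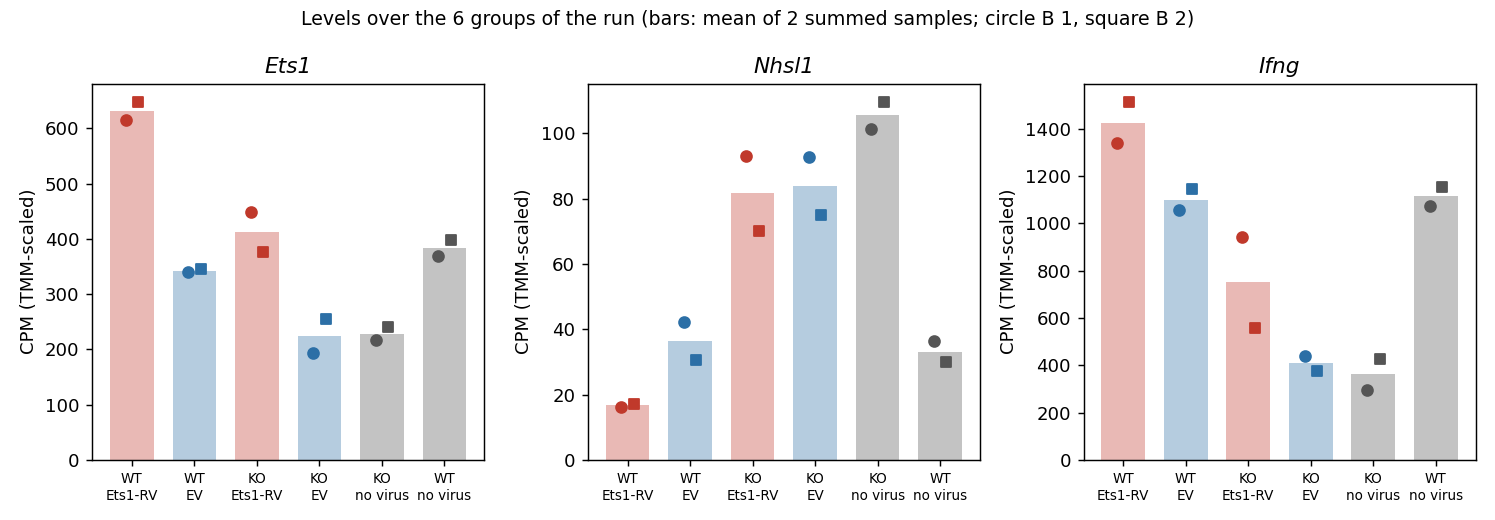
CPM of Ets1, Nhsl1 and Ifng in the 6 groups of the run. Bars are the mean of 2 summed samples, circles B number 1 and squares B number 2, and axes start at 0. WT cells with Ets1-RV have the highest Ets1 (616 and 648 CPM) and the lowest Nhsl1 (16.3 and 17.2 CPM).

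Since Ets1 binds DNA and Nhsl1 was the gene that fell, the 250 bases before each of the 2 starts that RefSeq gives for Nhsl1 (GRCm38.p6, plus strand) are shown, with each GGAA, or its complement TTCC, in capitals. They are chr10:18407425-18407674 and chr10:18469731-18469980.
Nhsl1 start 1: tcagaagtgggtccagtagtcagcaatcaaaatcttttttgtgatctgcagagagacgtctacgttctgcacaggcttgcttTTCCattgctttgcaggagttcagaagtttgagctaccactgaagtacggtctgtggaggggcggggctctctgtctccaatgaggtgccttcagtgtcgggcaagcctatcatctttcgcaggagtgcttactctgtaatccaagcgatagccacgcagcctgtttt
Nhsl1 start 2: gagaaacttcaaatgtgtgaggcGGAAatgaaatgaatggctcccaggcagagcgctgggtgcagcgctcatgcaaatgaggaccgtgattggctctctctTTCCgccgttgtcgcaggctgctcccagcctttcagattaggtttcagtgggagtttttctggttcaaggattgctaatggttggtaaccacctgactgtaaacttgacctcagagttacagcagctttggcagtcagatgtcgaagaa
The first window held 1 match and the second held 2, with no overlap between matches. Of 32851 windows of this length before RefSeq gene starts, 93.4% held GGAA on either strand at least once and 76.8% at least 2 times. Neither Nhsl1 window held CCGGAA, which 12% of all windows held, or CCGGAAGT, which 2.88% held. These are matches of letters in a short window, and binding of Ets1 was not measured here.

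The rest of the Ets family and the partners of Ets1 did not pass the test in any case. Of 17 listed Ets factors 14 were tested, 9 with a positive (64.3%, against 51.4% of all genes) and 5 with a negative fold change. Ets1 itself, which the virus carries, is counted among the 14 and the 9. Fli1, the neighbour of Ets1 on chromosome 9 and itself an Ets factor of blood cells, read 40.6 and 40.5 CPM with Ets1-RV, against 41.3 and 41.6 CPM with EV. Its log2 fold change was -0.05 (SE 0.13, 95% interval -0.33 to 0.23). Gm27162, between 3.04 and 4.65 CPM with Ets1-RV and 3.53 and 3.84 CPM with EV, gave 0.03 (SE 0.41). Of 21 factors that work with Ets1 or beside it in T cells, 9 had both Ets1-RV samples above both EV samples (42.9%, against 16.5% of all genes) and 1 had both below (4.76%, against 14.6%). Their median log2 fold change was 0.11, against 0.01 over all genes and -0.05 over the same 21 genes in KO cells. Gata3, the main factor of the Th2 fate, was among them at 10.6 and 17.1 CPM with Ets1-RV, against 7.69 and 9.21 CPM with EV. Its single libraries overlapped, with 9.64 to 18.2 CPM against 6.02 to 12.9 CPM, and the edgeR p was 0.019 before adjustment. Jun, a subunit of the AP-1 factor, had 90.4 and 83.4 CPM, against 78.1 and 67.2 CPM with EV. Jun, Lef1 and Satb1 were all among the 9. Jun also counts among the immediate early genes below, and Lef1 and Satb1 among the naive and quiescence genes. The shares of these lists are therefore not separate observations. Myb, a factor of early T cells and of memory-like T cells, had 51.3 and 56.9 CPM with Ets1-RV, against 63.9 and 74.9 CPM with EV (log2 fold change -0.36, SE 0.13).

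The Th1 genes showed no change that passed the test. Ifng, the cytokine that defines Th1 cells, had 1370, 1318, 1491 and 1541 CPM in the 4 Ets1-RV libraries, against 1074, 1038, 1163 and 1131 CPM in the 4 EV libraries. All 4 Ets1-RV libraries were above all 4 EV libraries. The log2 fold change was 0.38 (SE 0.19, 95% interval -0.03 to 0.78), and its adjusted p was 1.00 in the fit over all genes, where the p before adjustment was 0.067. In KO cells the same virus gave 0.88 for Ifng (SE 0.20, adjusted p = 0.262), from 944 and 558 CPM with Ets1-RV against 440 and 375 CPM with EV. The WT effect minus the KO effect was -0.51 for Ifng (95% interval -1.08 to 0.07), and this difference did not pass the test. WT cells with EV and untransduced WT cells had the same level within their spread, at 1101 ± 62.5 and 1114 ± 55.3 CPM (SD, n = 2 each). Tbx21 had 157 and 146 CPM with Ets1-RV, against 148 and 135 CPM with EV (log2 fold change 0.11, 95% interval -0.17 to 0.39). Prf1, which encodes the pore-forming protein of killer cells, had 30.4 and 32.6 CPM with Ets1-RV, against 31.3 and 27.2 CPM with EV (0.08, 95% interval -0.27 to 0.43). In the first experiment KO against WT cells gave -2.27 for Prf1 (adjusted p = 4.55e-06).

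Of 28 listed Th1 genes 26 were tested, 19 with a positive fold change (73.1%, against 51.4% of all genes), and the median was 0.08. Both Ets1-RV samples were above both EV samples for 5 of them and below both for 5 (19.2% each, near the 16.5% and 14.6% of all genes). Ly6c2, a surface protein of effector T cells that is also induced by interferon, had the largest value. It had 13.6, 13.03, 19.7 and 19.03 CPM with Ets1-RV, against 8.02, 7.53, 5.06 and 8.88 CPM with EV. Its log2 fold change was 1.13 (SE 0.29), with a p of 0.00095 before and 1.00 after adjustment in edgeR. Ly6c2 has a near-identical neighbour, Ly6c1, so how reads were split between these copies is uncertain. Tnf, an inflammatory cytokine, had 102 and 101 CPM, against 81.6 and 87.6 CPM with EV. Il12rb2, the Th1 cell's receptor chain for interleukin 12, had 437 and 500 CPM, against 458 and 469 CPM.

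No gene of other fates or of cytotoxic function passed the test. Of 15 tested Th2 genes 9 had a negative and 6 a positive fold change, where 51.4% of all genes were positive. Both Ets1-RV samples were below both EV samples for 4 (26.7%, against 14.6% of all genes) and above both for 1 (6.67%, against 16.5%). Gata3, already described, and Il13 were among the positive members, with log2 fold changes of 0.63 (SE 0.24) and 0.48 (SE 0.30). Il10, an anti-inflammatory cytokine, had 2.82 and 3.26 CPM with Ets1-RV, against 5.44 and 4.51 CPM with EV (log2 fold change -0.78, 95% interval -1.68 to 0.11). Maf, a factor that drives Il10 and interleukin 4, had 6.74 and 6.67 CPM, against 12.8 and 9.41 CPM (log2 fold change -0.76, SE 0.26). Of 12 tested Tfh and Th17 genes 6 had both Ets1-RV samples below both EV samples (50.0%, against 14.6% of all genes) and 1 had both above. They included Maf and Batf. The same list had a median of -0.15 in WT cells and 0.04 in KO cells. Of 11 tested genes of cytotoxic granules 2 were above in both samples and 2 below (18.2% each, near the 16.5% and 14.6% of all genes). Serpinb9, an inhibitor of granzyme B, had 69.3 and 51.8 CPM, against 52.5 and 39.6 CPM. Of 14 listed NK-type receptors only 4 were tested. Klra7, the member with the smallest p, was low in both groups, at 0.435 and 0 CPM against 1.78 and 0.784 CPM.

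The type I interferon genes had the highest median of the 21 lists. Of 23 listed, 17 passed the filter on low counts, and 16 of the 17 had a positive fold change (94.1%, against 51.4% of all genes). Their median was 0.38 in WT cells and 0.30 in KO cells. The WT median was 0.47 without the EV sample of B number 1. Both Ets1-RV samples were above both EV samples for 9 of the 17 (52.9%, against 16.5% of all genes) and below both for 0 (against 14.6%). Of these 9, Ifit1, Mx1, Mx2, Oas1a and Ifi44 were low, at 3.48 CPM or less in every summed sample of both groups. Genes near the filter can pass it through the group where they are higher, so this share and the median only describe the list. No member passed after adjustment with edgeR. At an unadjusted p under 0.05, 4 of the 17 were higher, against 1.73% of all genes. Isg15, a ubiquitin-like protein made in response to interferon, had 10.8, 8.81, 7.09 and 4.37 CPM with Ets1-RV, against 3.83, 5.40, 1.84 and 3.07 CPM with EV. The lowest Ets1-RV library was below the highest EV library, and the log2 fold change was 1.03 (SE 0.36). Oas3, a sensor of double-stranded RNA, had 91.0 and 80.9 CPM, against 78.8 and 58.6 CPM. Zbp1, a sensor of nucleic acids, had 47.1 and 46.7 CPM, against 42.8 and 34.1 CPM. Mx2, an antiviral GTPase, was low in both groups at 3.26 and 2.48 CPM against 1.59 and 0.784 CPM. Stat2, which carries the interferon signal to the nucleus, was the member with a negative value, at 51.1 and 47.1 CPM against 64.8 and 38.4 CPM. Of 21 tested genes of the response to interferon gamma 15 had a positive fold change (71.4%, against 51.4% of all genes), and the median was 0.10. Both Ets1-RV samples were above both EV samples for 2 of them and below both for 2 (9.52% each, against 16.5% and 14.6% of all genes). The GTPase Irgm1 had 76.3 and 68.5 CPM with Ets1-RV, against 57.1 and 59.8 CPM with EV. Gbp8, of another family of interferon-induced GTPases, had 8.91 and 11.8 CPM with Ets1-RV, against 19.1 and 14.1 CPM with EV. The difference between the interferon lists was not tested.

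Genes of recent antigen receptor signalling were next in order. Of 24 tested ERK feedback and immediate early genes 19 had a positive fold change (79.2%, against 51.4% of all genes). Both Ets1-RV samples were above both EV samples for 9 (37.5%, against 16.5%) and below both for 0 (against 14.6%). The median was 0.19 in WT cells and 0.04 in KO cells. Nr4a3, a nuclear receptor induced by the antigen receptor, had 96.4, 82.8, 84.4 and 84.2 CPM in the Ets1-RV libraries, against 72.9, 65.8, 57.5 and 63.5 CPM in the EV libraries. These groups did not overlap, and the log2 fold change was 0.40 (SE 0.13), with a p of 0.0084 before and 1.00 after adjustment in edgeR. Dusp1, a phosphatase that turns off MAP kinases, had 11.95 and 11.01 CPM, against 6.00 and 9.60 CPM. Myc, a factor of cell growth, had 440 and 437 CPM, against 385 and 393 CPM. Among 29 tested genes of the T cell receptor complex and its signalling, 7 were above in both samples (24.1%, against 16.5% of all genes) and 2 below (6.90%, against 14.6%).

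The naive and quiescence genes had 7 of 17 tested members above in both samples (41.2%, against 16.5% of all genes). Below in both were 0 (against 14.6%), and the median was 0.11 in WT and -0.09 in KO cells. Slfn2, which keeps T cells quiescent in mice, had 137 and 134 CPM, against 107 and 95.1 CPM. Cell cycle genes had 18 of 26 positive (69.2%, against 51.4% of all genes) with a median of 0.05. Rrm2, a subunit of the enzyme that makes DNA's building blocks, had 96.7 and 102 CPM, against 80.3 and 85.5 CPM. Sterol and fatty acid genes had 14 of 18 negative and 4 positive (22.2%, against 51.4% of all genes), with a median of -0.07. Dhcr7, the last enzyme of cholesterol synthesis, had 32.8 and 26.5 CPM, against 22.7 and 25.7 CPM. Of the 20 glycolysis and hypoxia genes 14 were negative and 6 positive (30.0%, against 51.4% of all genes), with a median of -0.03. Bnip3, a mitochondrial protein induced by low oxygen, had 32.4 and 31.2 CPM, against 39.6 and 48.0 CPM. Chemokine receptors split 9 and 9, and Cxcr4, the receptor for Cxcl12, had 8.91 and 7.91 CPM, against 12.9 and 11.96 CPM. Cytokine receptors had a median of 0.04, and Ifngr2, a chain of the interferon gamma receptor, had 15.4 and 13.2 CPM, against 9.94 and 9.02 CPM. Inhibitory receptors had a median of 0.00, with Tigit at 16.9 and 15.04 CPM against 19.1 and 23.3 CPM. Treg genes had a median of -0.14, and Tnfrsf4, the costimulatory receptor OX40, had 231 and 210 CPM, against 167 and 186 CPM. Survival genes had a median of 0.01, with Bcl2a1d, a member of the Bcl2 family with close copies, at 2.82 and 3.72 CPM against 1.88 and 2.16 CPM. Effector factors had a median of 0.11, with Batf, an AP-1 factor, at 33.2 and 28.1 CPM against 35.1 and 38.4 CPM. None of these genes passed the adjusted test.

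**Figure D3:**
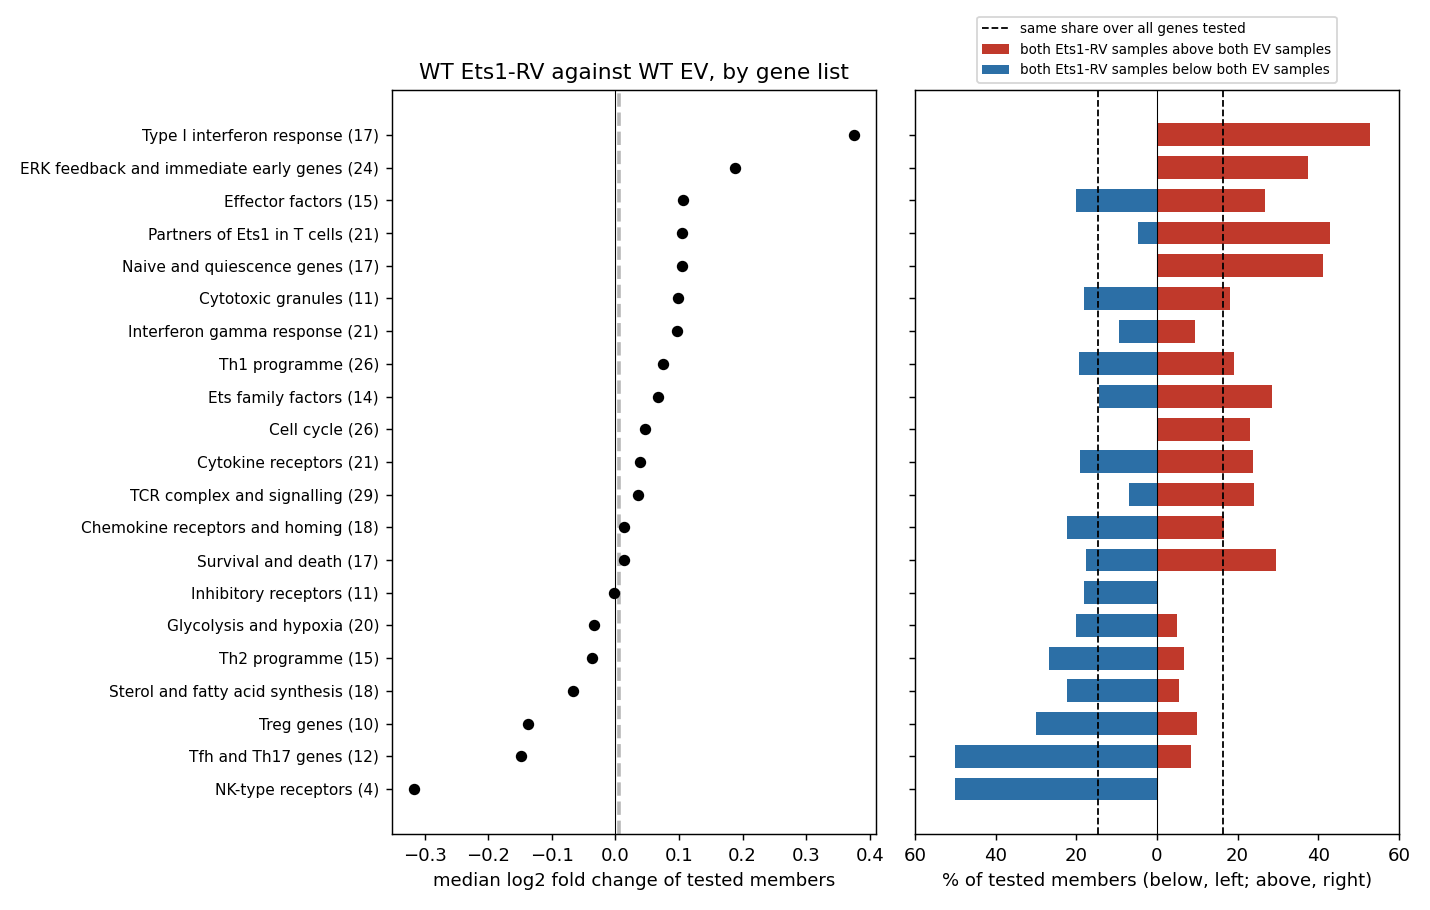
The 21 gene lists, with the number of tested members in brackets. The left panel gives the median log2 fold change of WT Ets1-RV against WT EV, with the median of all genes as a grey dashed line. The right panel gives the percentage of members with both Ets1-RV samples above (red) or below (blue) both EV samples, and dashed lines mark 16.5% and 14.6%, the shares over all genes. Type I interferon genes have the highest median, 0.38, and NK-type receptors, with 4 tested members, the lowest, -0.32.

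Beyond Ets1 and Nhsl1, the genes with the next smallest p were chosen after their values were seen. Ifitm1, a membrane protein induced by interferon, had 15.3, 16.2, 17.6 and 13.1 CPM with Ets1-RV, against 26.1, 29.9, 30.8 and 34.8 CPM with EV. All Ets1-RV libraries were below all EV libraries, and the log2 fold change was -0.96 (SE 0.19, adjusted p = 0.248, edgeR). In KO cells it was -0.59. Mmp9, a secreted protease of extracellular matrix, had 3.40, 4.93, 6.16 and 7.49 CPM with Ets1-RV, against 1.28, 0.965, 2.30 and 0.683 CPM with EV. These levels rest on 6 to 24 counts per library with Ets1-RV and 2 to 7 with EV. P4ha2, an enzyme of collagen synthesis, had 2.39 and 3.57 CPM, against 6.47 and 10.0 CPM. Ifi27l2a, an interferon-induced gene, had 78.0 and 66.5 CPM, against 52.0 and 41.6 CPM, with log2 fold changes of 0.61 in WT and 0.63 in KO cells. Zfp513, a zinc finger gene, had 13.5 and 11.9 CPM, against 7.88 and 6.08 CPM, and gave 0.84 in WT and 0.01 in KO cells. Arrb1, which encodes a beta-arrestin, had 41.3 and 36.0 CPM, against 56.7 and 53.1 CPM. Slc17a9, a transporter that loads ATP into vesicles, had 12.6 and 9.61 CPM, against 18.1 and 17.6 CPM. The histone genes Hist1h1a and Hist1h2ai gave 0.53 and 0.55, and belong to families of near-identical copies whose reads are uncertain.

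**Figure D4:**
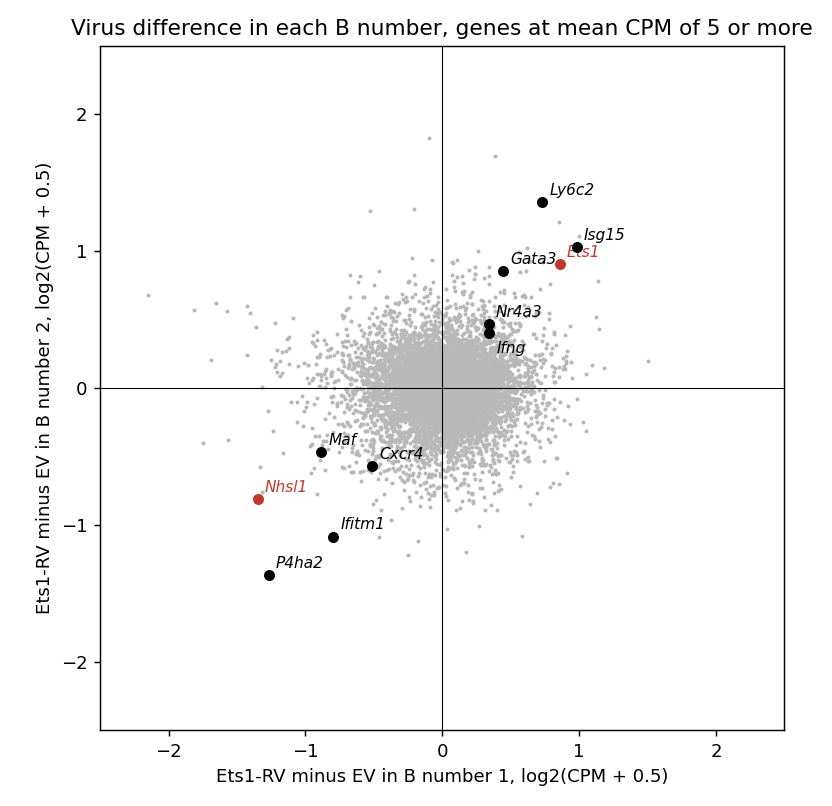
Ets1-RV minus EV on the log2(CPM + 0.5) scale in B number 1 (x axis) and B number 2 (y axis), for the 8799 genes at a mean of 5 CPM or more. Grey points are genes, red points the 2 genes called and black points other named genes. Ets1 lies at 0.86 and 0.91 and Nhsl1 at -1.35 and -0.81, while most genes lie around 0 in both.

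The effect of the virus in WT cells was also set beside that in KO cells, which had EV libraries of their own. Of the 195 genes higher in WT at an unadjusted p under 0.05, 24 were higher in KO cells at the same threshold. They were 12.3% of the WT genes and 6.59% of the 364 KO genes, while 3.23% of all genes were in the KO set. Of the 206 lower genes, 26 were shared, which was 12.6% of the WT genes and 8.23% of the 316 KO genes, while 2.80% of all genes were in the KO set. The sign in KO cells was the same for 66.2% of the higher and 66.5% of the lower WT genes, against 50.4% and 49.6% of all genes with that sign. Both virus effects come from the same run and the same B numbers.

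The last comparison asked whether genes that differ in KO Th1 cells move the other way when WT cells receive more Ets1. The first experiment compared 3 KO with 3 WT libraries of Th1 cells and called 207 of 12195 genes higher in KO (1.70%) and 162 lower (1.33%). All 6 libraries carry B number 1, so these calls rest on the spread between T numbers, with 1 B number per genotype. Of the 162 lower genes, 156 were tested here, Ets1 among them. Of these, 100 had a positive fold change with Ets1-RV (64.1%, against 51.4% of all genes). Both Ets1-RV samples were above both EV samples for 41 (26.3%, against 16.5%) and below both for 12 (7.69%, against 14.6%). The median log2 fold change was 0.07. Of the 207 higher genes, 174 were tested here, Nhsl1 among them. Of these, 103 had a negative and 71 a positive fold change (40.8% positive, against 51.4%). Below in both samples were 40 (23.0%, against 14.6%), 27 were above (15.5%, against 16.5%), and the median was -0.04. That median stayed negative in 23 alternatives but moved by more than the spread between B numbers in 16 of them. Without the EV sample of B number 1 the medians were 0.085 for the genes lower in KO and -0.022 for those higher in KO. Each list held 1 gene that passed: Ets1 and Nhsl1.

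Among genes lower in KO cells, 9 were higher with Ets1-RV at an unadjusted p under 0.05 (5.77%, against 1.73% of all genes) and 5 were lower (3.21%, against 1.83%). The 9 included Nr4a3 and Serpinb9, already described, and others named here after their values were seen. Trib2, a pseudokinase, had 32.8 and 33.2 CPM with Ets1-RV, against 21.9 and 23.9 CPM with EV, and a KO fold change of -0.98 on the log2 scale. Sdcbp2, a PDZ-domain protein, had 56.5 and 54.4 CPM, against 39.5 and 43.1 CPM. Dusp7, a MAP kinase phosphatase, had 30.0 and 28.7 CPM, against 22.0 and 20.4 CPM. Orai1, the pore of the calcium channel opened by the antigen receptor, had 38.5 and 27.3 CPM, against 27.4 and 19.6 CPM. The smooth-muscle gene Myh11 and the filamin-binding gene Filip1 went the other way, since Myh11 had 24.3 and 29.6 CPM, against 59.5 and 33.3 CPM, and Filip1 had 20.6 and 26.04 CPM, against 52.2 and 25.9 CPM. In both, the EV sample of B number 1 was the highest of the 4.

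Among genes higher in KO cells, 19 were lower with Ets1-RV at an unadjusted p under 0.05 (10.9%, against 1.83% of all genes) and 3 were higher (1.72%, against 1.73%). Beside Nhsl1, Maf, Cxcr4, Bnip3, P4ha2 and Gbp8, the 19 included Tanc2, a scaffold protein, at 3.04 and 4.03 CPM against 6.19 and 7.25 CPM. Tanc2 was higher in KO cells by 2.16 on the log2 scale. Gzma, a granule protease, had 12.6 and 14.3 CPM with Ets1-RV, against 23.1 and 18.8 CPM with EV. Lgals3, which encodes galectin 3, had 20.4 and 11.9 CPM, against 22.9 and 22.1 CPM. Mmp7, a secreted protease, was 1 of the 3 that were higher, at 3.69 and 3.57 CPM against 1.22 and 1.76 CPM. Apart from Ets1 and Nhsl1, no gene of either list passed after adjustment.

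**Figure D5:**
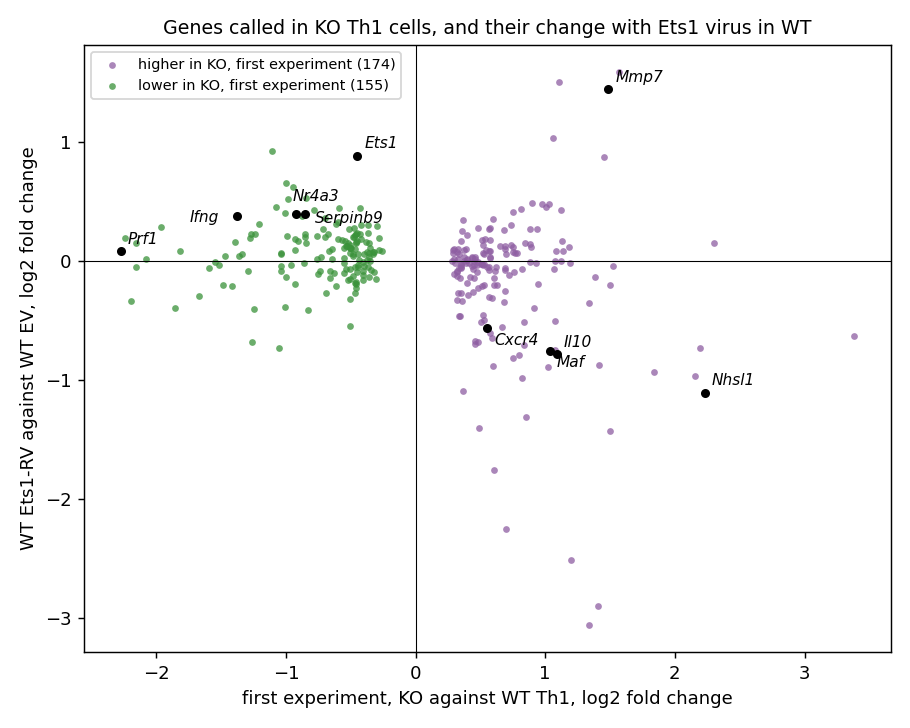
Log2 fold change of KO against WT Th1 cells in the first experiment (x axis) and of WT Ets1-RV against WT EV (y axis) for the genes called in the first experiment. Purple points were higher in KO, green points lower, and Gm27162, at 0 counts in KO cells, is not drawn. Ets1 lies at -0.45 and 0.88, Nhsl1 at 2.23 and -1.11, and most points lie near 0 on the y axis.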

How the data were processed

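The authors deposited raw gene counts for each library, written by STAR 2.5.0a on GRCm38, per the submitters' processing notes. Libraries were made with a strand-specific total RNA kit, per the labels' protocols. The strand that held 93.3% to 94.4% of stranded gene counts was used. Summary lines that name no gene took 68.7% to 76.0% of the tabulated reads in the 8 WT libraries with a virus and stayed out. Of 45706 identifiers, 45143 matched GENCODE M21, which gave symbols and coordinates.

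Counts were summed over T numbers within a B number, giving 12 samples in 6 groups. The test was edgeR's quasi-likelihood F test (version 4.0.16, R 4.3.3) with TMM scaling, filterByExpr, group means and the B number as a block. P-values were adjusted by Benjamini-Hochberg over every gene tested, and 0.05 was the threshold. All p-values and adjusted p-values are from this test unless another tool is named. The block follows from grouping by B number and was an assumption, since nothing in the labels says that a number marks shared animals. P-values then measure the spread that the block leaves between these samples, which may be technical. The difference between B numbers itself was not only technical, since they held cells of different sex in both WT groups with a virus. The first Th1 experiment was fitted alone, without a block. No pair of libraries agreed within sampling noise by a chi-square test over genes. DESeq2 1.42.0 and other settings were alternatives. The members and gene lists were chosen with earlier results of these data known. Genes were named by a rule: the genes called, 8 genes of interest, and per list up to 4 members called in each direction or else the member with the smallest p. A few genes are not reported here. Other genes are said to be chosen after their values were seen, or stand as examples of their list. Scripts were tested on simulated counts. Floors and intervals cover counting and sample error only.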

Additional observations from a re-analysis of the deposited data

Results flagged for a closer look

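In each group of 4 libraries, 74 gene and group pairs among the named genes were searched for a library far from the other 3, and 7 were found, where chance gives about 1 in 20. Libraries of 1 B number were summed for the test, and the 4 values are not shown to be independent.

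The Ets1-RV library of B number 1 and T number 1, the one with the fewest counts, was high for 4 genes. Cxcr4 had 10.2 CPM there, against 7.70 to 8.11 CPM in the other 3 Ets1-RV libraries. Nr4a3 had 96.4 CPM, against 82.8 to 84.4 CPM. Tigit had 21.0 CPM, against 14.4 to 15.4 CPM. Zfp513 had 15.9 CPM, against 11.7 to 12.2 CPM.

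The libraries of B number 2 and T number 1 gave the other 3 values. Tbx21 had 138 CPM in the Ets1-RV library, against 155 to 158 CPM in the other 3, and 121 CPM in the EV library, against 145 to 148 CPM in the other 3. Prf1 had 22.1 CPM in that EV library, against 30.8 to 31.8 CPM in the other 3.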

How the results depend on the processing

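The count of 2 called genes depended on the setting. It was 0 without the replicate block (351 genes at an unadjusted p under 0.05, against 401 with it), where Ets1 kept a log2 fold change of 0.88 with an adjusted p of 0.0566, and 0 with B number 2 alone for the WT samples with a virus, chosen after seeing the data, where Ets1 was at 0.91. It was 11 with each library by itself and the block, which treats libraries of 1 B number as separate, 20 with only the 4 summed WT samples with a virus, and 30 with no filter on low counts. Each of these 3 settings called Ets1 and Nhsl1 as well. Leaving out 1 sample or library gave 0 to 2 calls, and 0.84 to 0.91 for Ets1. DESeq2 called 2 genes (133 at an unadjusted p under 0.05). Libraries grouped by title gave 379 calls and -0.61 for Ets1, a reversal made by comparing KO with WT libraries. Outside the sex chromosomes, B numbers did not deviate together in these groups (correlation of their differences over genes 0.07). So the block is not shown to pair the samples beyond the sex of the cells, which differed between B numbers in both groups.

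The WT minus KO effect had 0 calls, but 3 with each library by itself and 46 with no filter. The first experiment gave 369 calls, 803 with no filter, and 118 to 480 when 1 library was left out, an alternative chosen after seeing the data. Signs changed on leaving out 1 sample or library for Gm27162 (-0.26 to 0.34), Fli1 (-0.18 to 0.082), Tbx21 (-0.035 to 0.22) and Prf1 (-0.13 to 0.32), none of which was called. Of the genes not called, Ifitm1, Mmp9, Ly6c2 and Ifi27l2a passed with each library by itself, with only the 4 WT samples and with no filter. The median of the type I interferon genes lay between 0.31 and 0.48 under every alternative but the grouping by title, which was run for counts and Ets1 alone. The cause of these changes was not tested. With 2 summed samples per group and a median SE of 0.19 on the log2 scale over all genes tested, small changes could go undetected.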
